A study of Homo sapiens with 6 samples.

Results

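Matrix metalloproteinases (MMPs) are zinc-dependent endopeptidases that cleave collagens, laminins, fibronectin and other proteins at and around the cell surface. They are made as inactive proenzymes and are held in check by the tissue inhibitors of metalloproteinases (TIMPs), which bind the active site. In blood monocytes and macrophages, MMPs serve passage through basement membrane and remodeling of the surrounding matrix, and in leukemia they have been studied for their part in marrow egress and tissue infiltration. The genes described here are 5 MMPs (MMP2, MMP9, MMP14, MMP19 and MMP25) and 3 TIMPs (TIMP1, TIMP2 and TIMP3), found by gene name among the 33981 genes of the count table. They were chosen with their counts in the comparison of NFIC shRNA with scrambled shRNA already known, so that their differences are given as a description, and the edgeR calls that they share with all genes support nothing here.

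THP-1 is a human monocytic acute myeloid leukemia (AML) cell line that carries the MLL::AF9 fusion. All 6 samples were THP-1 cells infected with a GFP-marked lentiviral shRNA vector and sorted for GFP 4 days later for bulk mRNA sequencing. Of these, 3 received scrambled shRNA, called controls below, and 3 received shRNA against nuclear factor I-C (NFIC), a transcription factor, and are called knockdown (KD) samples. The study's methods call the control vector GFP only, whereas its results and figure legend call these controls scrambled, as the labels do. Its text also numbers 1 of the controls otherwise than the sample labels and the count table do. The labels' names and numbers are used here. The KD rests on a single shRNA, which the study names sh494 and whose target lies in the coding sequence of NFIC, in exon 7 of the canonical transcript (GRCh38 chr19:3449042-3449062, plus strand).

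sh494 target: gatggacaagtcaccattcaa

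NFIC itself had raw counts of 911, 1019 and 904 in controls, against 399, 518 and 493 in KD samples, which is 50.1% of the control level in CPM (counts scaled to the library size, with TMM factors). Total counts lay between 20369543 and 24809720 per sample. Of 15 monocyte and macrophage markers 12 passed the filter on low counts, and control means ran from LYZ at 572 CPM through CD14 at 7.16 CPM to CD86 at 1.72 CPM. The macrophage receptors CD163, MSR1 and MRC1 had at most 3 counts in any control and were not tested. The labels call the samples replicates without naming separate cultures, so all p-values measure the spread between these samples only.

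The fit of edgeR covered 19182 genes and included all 8 members. Of all genes tested 59.9% had an adjusted p under 0.05. With NFIC KD 5 members were lower and 1 was higher at an adjusted p under 0.05, against 30.3% of all genes tested that were lower and 29.6% that were higher. The CPM of the groups did not overlap for the same number of members, 6 of 8, against 65.2% of all genes tested. A log2 fold change under -1 at that threshold was seen in 3 members (MMP2, MMP9 and TIMP3) and in 8.57% of all genes tested. Because the members were chosen on this comparison, nothing is read from these counts. The median log2 fold change of the members was -0.68 and that of all genes tested was -0.011.

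**Figure D1:**
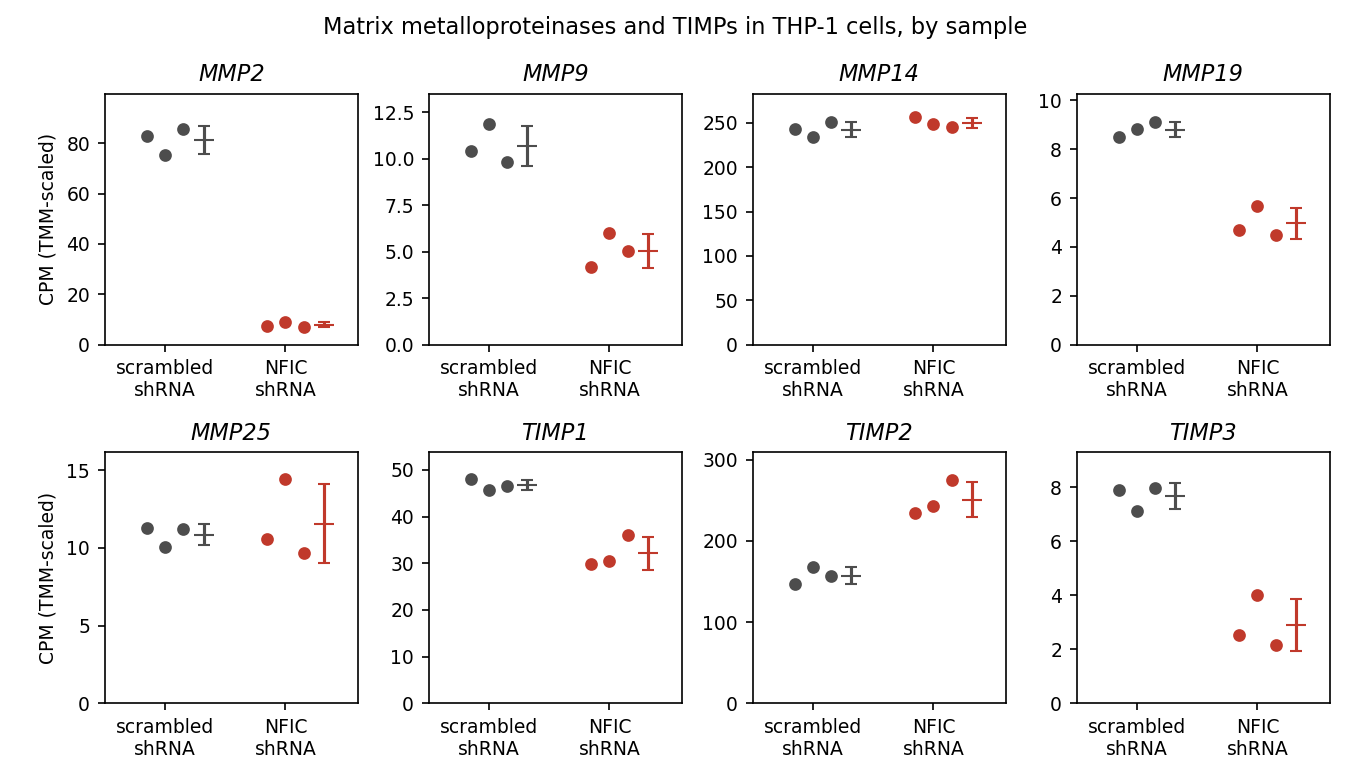
CPM of the 8 genes in each sample on linear axes that start at 0, with 1 point per sample and the mean ± SD of 3 samples beside the points. MMP2, MMP9, MMP19, TIMP1 and TIMP3 lie lower in all 3 NFIC shRNA samples, TIMP2 lies higher in all 3, and the groups overlap for MMP14 and MMP25.

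The gelatinases MMP2 and MMP9 digest denatured collagen and the type IV collagen of basement membranes. MMP2 (ENSG00000087245, GRCh38 chromosome 16 from 55389700 to 55506691) had 1794, 1852 and 1835 counts in controls, against 152, 208 and 165 counts in KD samples. Every KD sample was far under every control sample, and the level fell to 7.83 ± 0.989 CPM from 81.3 ± 5.42 CPM (SD, n = 3 per group). That left 9.63% of the control level, a log2 fold change of -3.37 (SE 0.088). Only 14 of the genes tested, MMP2 included, had a log2 fold change at or under this value, which is 0.073% of them. The bulk measurement cannot tell fewer cells that express a gene from less RNA of it in each cell.

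MMP9 (chromosome 20, 46008908 to 46016561), the gelatinase stored in the tertiary granules of neutrophils and secreted by macrophages, was less abundant than MMP2 in the control cells. It was counted 225, 293 and 210 times in controls, against 86, 139 and 116 in KD samples. The groups did not overlap, and the mean went from 10.7 ± 1.08 CPM to 5.06 ± 0.910 CPM (SD, n = 3 per group), and the log2 fold change was -1.08 (SE 0.14). MMP2 thus kept a smaller part of its control level than MMP9, which kept 47.3%.

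MMP14 and MMP25 are bound to the cell surface, MMP14 by a transmembrane helix and MMP25 by a lipid anchor. MMP14, the activator of proMMP2, lies on chromosome 14 from 22836560 to 22849041. It had 5250, 5750 and 5365 counts in controls, against 5279, 5777 and 5650 in KD samples. The groups overlapped at 242 ± 8.48 and 250 ± 5.68 CPM (SD, n = 3 per group), and the log2 fold change was 0.045 with a normal 95% interval from -0.051 to 0.14. Its sign turned to -0.012 with upper-quartile normalization. MMP14 was therefore within a narrow range of its control level, although no test of equality was made.

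MMP25 (chromosome 16, 3046062 to 3060726), which was named leukolysin for its expression in leukocytes, had 244, 248 and 240 counts in controls, against 218, 335 and 223 in KD samples. In CPM these were 11.3, 10.1 and 11.2 in controls and 10.6, 14.4 and 9.66 in KD samples, so that KD replicate 2 lay above all other samples, replicate 3 below them and replicate 1 among the controls. The log2 fold change of 0.095 had a wider 95% interval, from -0.16 to 0.35, and it was -0.097 without NFIC shRNA replicate 2. MMP19 (chromosome 12, 55835433 to 55842966), a secreted enzyme that cleaves basement membrane proteins, had 184, 217 and 195 counts in controls, against 97, 132 and 104 in KD samples. The groups did not overlap, and the mean went from 8.81 ± 0.301 CPM to 4.97 ± 0.633 CPM (SD, n = 3 per group), and the log2 fold change was -0.82 (SE 0.13).

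The 3 inhibitors did not shift in 1 direction. TIMP2, which blocks MMPs and also bridges MMP14 to proMMP2 during its activation, was the member that was higher. It lies on the minus strand of chromosome 17 from 78852977 to 78925387 and had 3183, 4119 and 3355 counts in controls, against 4835, 5645 and 6344 in KD samples. All KD samples were above all controls, and the mean went from 157 ± 10.1 CPM to 251 ± 21.3 CPM (SD, n = 3 per group), and the log2 fold change was 0.68 (SE 0.063).

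TIMP1 binds proMMP9 and is a weak inhibitor of the membrane-anchored MMP14. It lies on chromosome X from 47582408 to 47586789 and had 1038, 1126 and 996 counts in controls, against 615, 705 and 833 in KD samples. The groups did not overlap, and 68.7% of the control level remained (log2 fold change -0.54, SE 0.075). TIMP3 is held in the extracellular matrix and inhibits ADAM17 and aggrecanases of the ADAMTS group beside MMPs. It lies on chromosome 22 from 32801705 to 32863041 and had 171, 175 and 171 counts in controls, against 52, 93 and 50 in KD samples. All KD samples were under the controls, and 37.8% of the control level remained (log2 fold change -1.39, SE 0.18).

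**Figure D2:**
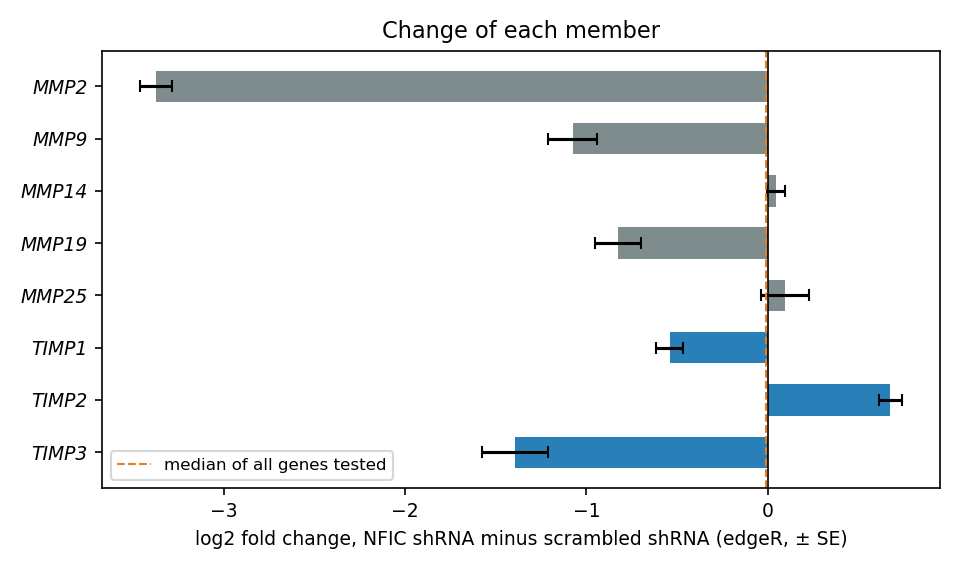
Log2 fold change of NFIC shRNA minus scrambled shRNA for each gene with its standard error, MMPs in grey and TIMPs in blue, and the median of all genes tested as a dashed line. MMP2 reaches -3.37, whereas TIMP2 at 0.68 lies on the other side of 0 and MMP14 at 0.045 lies near it.

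The sequence before the transcription start was compared for TIMP1 and TIMP3, the lower pair of inhibitors. RefSeq windows (GRCh38.p14) were used for 3 of the members, TIMP1, TIMP3 and MMP14. No RefSeq window was used here for MMP2, MMP9, MMP19, MMP25 or TIMP2. The 250 bases before the start are printed 5′ to 3′, on the plus strand, at chrX:47582186-47582435 for TIMP1 and at chr22:32801455-32801704 for TIMP3. The RefSeq start of TIMP1 and of MMP14 lies inside the gene as GENCODE places it, so the end of these windows is within the GENCODE gene. Capitals mark the GC box GGGCGG on either strand and the TTGGC element that the nuclear factor I family recognizes.

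TIMP1: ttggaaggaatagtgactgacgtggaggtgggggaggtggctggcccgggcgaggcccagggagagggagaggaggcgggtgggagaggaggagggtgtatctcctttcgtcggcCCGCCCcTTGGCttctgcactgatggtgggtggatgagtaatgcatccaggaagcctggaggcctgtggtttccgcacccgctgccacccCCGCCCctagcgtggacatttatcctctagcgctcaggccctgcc

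TIMP3: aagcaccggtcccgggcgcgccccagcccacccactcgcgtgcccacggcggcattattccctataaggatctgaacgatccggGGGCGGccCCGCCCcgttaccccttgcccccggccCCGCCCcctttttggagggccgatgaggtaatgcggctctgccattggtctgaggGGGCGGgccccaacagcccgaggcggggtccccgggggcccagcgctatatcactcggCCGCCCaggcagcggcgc

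TIMP3 had 5 GC boxes and TIMP1 had 2, against 1 in MMP14. A GC box was found in 42.3% of 27305 promoter windows of the same length. The TTGGC element, searched on both strands, was found once in TIMP1, at 128 bases before the start, and was present in 41.3% of all windows. In TIMP3 and MMP14 these letters were not in the window. The full palindromic site, TTGGC and GCCAA with 5 bases between them, and the AP-1 motif TGANTCA were in none of the 3 windows and in 0.033% and 6.60% of all windows. The CCAAT box was found once in TIMP3 and once in MMP14 and was in 33.0% of all windows. The GC content was 64.8% for TIMP1, 72.4% for TIMP3 and 56.8% for MMP14, and its median over all windows was 58%. A match of letters is a description and not evidence of binding.

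To compare levels between genes, the deposited FPKM values (fragments scaled by gene length and by sample) were used. With scrambled shRNA MMP14 was the highest at 53.7 ± 1.96 FPKM (SD, n = 3), followed by TIMP1 at 31.9, TIMP2 at 27.5 and MMP2 at 17.1 FPKM. MMP9, MMP25, MMP19 and TIMP3 followed at 4.53, 2.53, 1.86 and 1.65 FPKM, and no neighbors in this order overlapped between samples. MMP14 was above 95.4% of all genes tested and MMP2 above 83.9% of them.

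With NFIC shRNA the order was different. MMP14 stayed first at 56.0 ± 0.937 FPKM (SD, n = 3), but TIMP2 at 44.5 FPKM stood above TIMP1 at 22.2 FPKM. MMP2 went from the fourth to the sixth place at 1.66 FPKM, above 32.1% of all genes tested. MMP25 at 2.72, MMP9 at 2.16 and MMP2 could not be ordered fully, because the samples of MMP25 overlapped those of MMP9 and the samples of MMP9 overlapped those of MMP2. TIMP3 was again the lowest at 0.629 FPKM.

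The make-up of the pool shifted accordingly. MMP2 took 21.8%, 20.6% and 21.9% of the summed FPKM of the 5 MMPs in controls, against 2.44%, 2.93% and 2.46% in KD samples. MMP14 took between 67.2% and 67.6% in controls, against between 86.0% and 89.3% in KD samples. The share of MMP2 became small and that of MMP14 grew, while the level of MMP14 itself overlapped between groups.

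Among the inhibitors, the ratio of TIMP2 to TIMP1 was 0.787, 0.939 and 0.865 in controls, against 2.02, 2.06 and 1.96 in KD samples. By FPKM, TIMP1 thus stood above TIMP2 in every control sample and TIMP2 above TIMP1 in every KD sample. The order in controls rests on the gene lengths used, 1446 bases for TIMP1 and 5633 bases for TIMP2. In raw counts TIMP2 was above TIMP1 in every control, with 3183, 4119 and 3355 counts against 1038, 1126 and 996. Exons that TIMP2 shares with other genes also make its level uncertain. Summed over the 3 TIMPs, the level was between 60.1 and 62.1 FPKM in controls, against between 62.4 and 74.7 FPKM in KD samples.

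The ratio of summed MMP to summed TIMP FPKM was 1.33, 1.24 and 1.35 in controls, against 1.02, 0.998 and 0.833 in KD samples, and the groups did not overlap. The ratio of MMP2 to TIMP2 went from 0.623 ± 0.0737 to 0.0376 ± 0.00649 (SD, n = 3 per group). The ratio of MMP9 to TIMP1, a proenzyme and the inhibitor that binds it, went from 0.142 ± 0.0167 to 0.0983 ± 0.0206. These are ratios of transcripts and not of active enzyme to inhibitor.

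**Figure D3:**
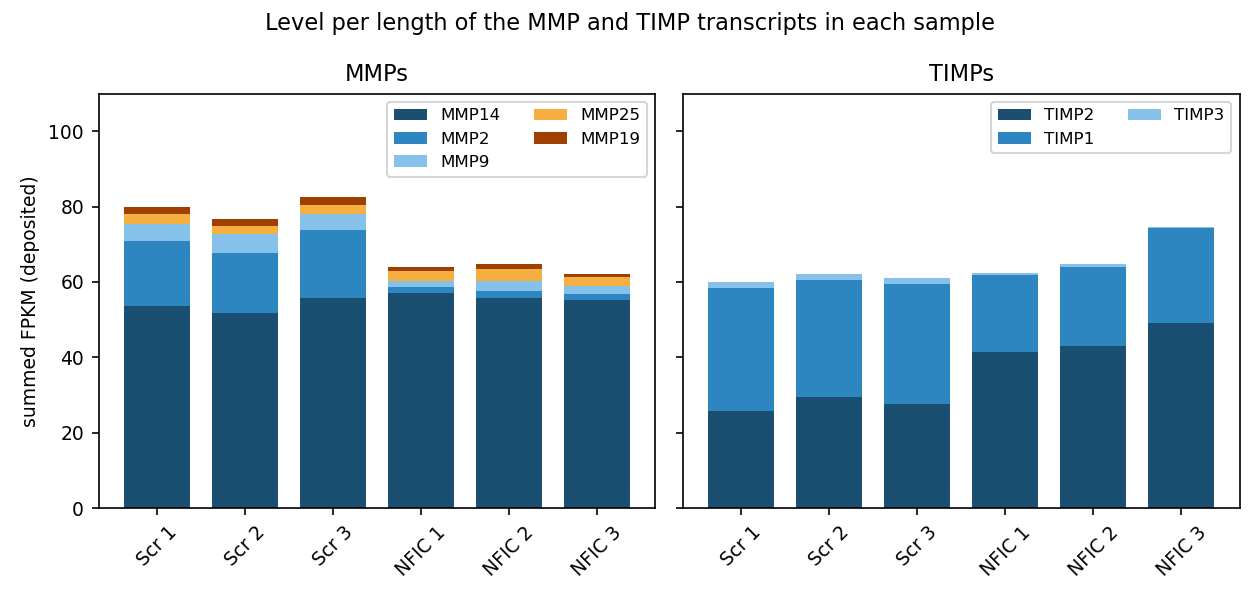
Deposited FPKM of the 5 MMPs (left) and the 3 TIMPs (right) stacked for each sample, with scrambled shRNA (Scr) and NFIC shRNA (NFIC) replicates 1 to 3 on the x axis. The MMP2 segment shrinks from between 15.8 and 18.0 FPKM to between 1.53 and 1.90 FPKM, and the TIMP2 segment grows from between 25.7 and 29.4 to between 41.3 and 49.1 FPKM.

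The spread relative to the mean was wider among KD samples than among controls for every member but MMP14, although the SD itself was narrower for MMP2 and MMP9. The coefficient of variation of CPM was between 2.43% and 10.1% over the members in controls and between 2.27% and 33.7% in KD samples, where TIMP3 was the highest. Over all genes tested its median was 7.30% and 8.18%. In 5 of the 8 members (MMP2, MMP9, MMP19, MMP25 and TIMP3), NFIC shRNA replicate 2 had the highest CPM of its group. TIMP1 and TIMP2 were highest in replicate 3 instead.

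Several members share their locus with another annotated gene, and whether the counting used strand is not given in the sources used here. An antisense RNA of MMP2, MMP2-AS1, whose exons do not overlap those of MMP2, had between 111 and 130 counts in controls, against between 11 and 20 in KD samples. A further gene model on the strand of MMP2 overlaps its exons and had between 229 and 268 counts in controls, against between 25 and 33 in KD samples. The exons of MMP9 overlap those of SLC12A5-AS1, which had between 98 and 145 and between 54 and 59 counts. The exons of MMP19 overlap those of the pseudogene TMEM198B, which had between 377 and 422 and between 132 and 175 counts. The exons of MMP25 overlap those of MMP25-AS1, which had between 289 and 352 counts in controls, against between 186 and 268 in KD samples, while those of MMP25 overlapped between groups. At TIMP1, which was lower in KD samples, a long noncoding RNA on the other strand without exon overlap (ENSG00000283743) went the other way, from between 332 and 405 to between 749 and 907 counts. TIMP2 shares exons with CEP295NL on its own strand and with a long noncoding RNA (ENSG00000267601) on the other. That RNA had between 822 and 1092 counts in controls, against between 1271 and 1750 in KD samples. CEP295NL had between 565 and 803 counts in controls, against between 897 and 1147 in KD samples. Reads of exons shared on the same strand, at MMP2 and at TIMP2 with CEP295NL, cannot be told apart from those of the member. At MMP9, MMP19 and MMP25, and at TIMP2 with the long noncoding RNA, the overlapping exons lie on the other strand. Their reads can be told apart only if the counting used strand. The exact levels of MMP2 and TIMP2 are therefore uncertain, and without strand those of MMP9, MMP19 and MMP25 are too.

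Genes with the most similar profile over the 6 samples were found by Pearson's r of log2 CPM among 12337 protein-coding genes. RPS15A, a ribosomal protein gene, was nearest to MMP2 (r = 0.9998) although its own log2 fold change was only -0.68. PIGH was nearest to MMP19 (r = 0.9996) and TSPAN4 to TIMP3 (r = 0.9996). ZNF260 was nearest to TIMP1 (r = 0.995), ZNF678 to TIMP2 (r = 0.999), ZUP1 to MMP14 (r = 0.980) and CCDC130 to MMP25 (r = 0.996). The 6 points share the group difference, and 558 genes had an r above 0.99 with MMP2.

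The remaining MMP genes and TIMP4 were examined as a list written from general knowledge. Of 19 genes 5 were tested, 8 had too few counts, and 6 (MMP3, MMP10, MMP20, MMP26, MMP27 and MMP28) were not analysed here. The share of the tested genes that was called was 40%, against 59.9% of all genes tested. MMP15 (14.2 ± 0.511 to 11.8 ± 0.0711 CPM, SD, n = 3 per group), a further membrane-anchored MMP, was the 1 gene that fell, with a log2 fold change of -0.27 (adjusted p = 0.0174 from edgeR). This call was lost with DESeq2, at an adjusted p of 0.0926. MMP21 rose with a log2 fold change of 0.48 and an adjusted p from edgeR of 0.0486, but the adjusted p was above 0.05 in 10 of 14 alternatives, 0.0715 with a replicate block among them, and ranged from 0.0195 to 0.218. MMP11, MMP17 and MMP24 did not pass the test, with log2 fold changes of -0.91, -0.0069 and 0.28. MMP8, the neutrophil collagenase, had 0, 5 and 2 counts in controls, against 8, 6 and 10 in KD samples and was not tested. The median log2 fold change of the 5 genes was -0.0069, and it was 0.0013 with DESeq2's size factors, 0.011 without scaling factors and -0.064 with upper-quartile normalization. The summed FPKM of these other MMPs overlapped between groups, at 9.28 ± 0.621 and 9.22 ± 0.330 (SD, n = 3 per group).

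The ADAM and ADAMTS proteases are metalloproteinases that shed surface proteins or cleave proteoglycans and procollagen, and TIMP3 inhibits several of them. Of 32 genes 19 were tested, of which 11 fell and 3 rose, and the median log2 fold change was -0.72. The share called was 73.7%, against 59.9% of all genes tested. ADAMTS10 had 192, 225 and 167 counts in controls, against 19, 31 and 28 in KD samples (log2 fold change -2.88, adjusted p = 3.53e-10 from edgeR). ADAMTS2, a procollagen N-proteinase, fell to 18.7 ± 3.28 CPM from 58.6 ± 3.72 CPM (SD, n = 3 per group, log2 fold change -1.65, adjusted p = 3.37e-09 from edgeR), and ADAMTS1 had a log2 fold change of -1.43 (adjusted p = 2.52e-08 from edgeR).

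Among the genes that rose, ADAM10, a main sheddase of the cell surface, went from 205 ± 8.12 CPM to 344 ± 13.5 CPM (SD, n = 3 per group, log2 fold change 0.75, adjusted p = 1.69e-09 from edgeR). ADAM9 had a log2 fold change of 1.25 (adjusted p = 1.14e-10 from edgeR). ADAMTS5, an aggrecanase that TIMP3 inhibits, had 5, 1 and 3 counts in controls, against 48, 44 and 56 in KD samples (adjusted p = 1.37e-07 from edgeR). ADAMTS4, the other main aggrecanase, went the other way, with 40, 44 and 51 counts and then 12, 26 and 10 counts. ADAM17, the sheddase of tumor necrosis factor and also a target of TIMP3, did not pass the test, with 81.3 ± 1.88 and 85.3 ± 4.29 CPM (SD, n = 3 per group).

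Genes that activate, inhibit or clear MMPs included 20 tested genes of 29, of which 8 rose and 5 fell, with a median log2 fold change of 0.11. The share called was 65%, near the 59.9% of all genes tested. RECK, a membrane-anchored inhibitor of MMP2, MMP9 and MMP14, rose to 29.9 ± 1.73 CPM from 20.3 ± 0.997 CPM (SD, n = 3 per group, log2 fold change 0.56, adjusted p = 7.70e-06 from edgeR). CD63, a surface tetraspanin that binds TIMP1, had a log2 fold change of 0.55 (adjusted p = 5.71e-08 from edgeR). FURIN, the convertase that removes the prodomain of MMP14, went from 76.6 ± 1.71 CPM to 94.2 ± 0.919 CPM (SD, n = 3 per group) and LRP1, which takes up MMP and TIMP complexes, from 36.4 ± 1.04 to 44.6 ± 5.84 CPM.

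PCSK6, a convertase of the furin type, fell to 7.67 ± 1.06 CPM from 28.9 ± 1.21 CPM (SD, n = 3 per group, log2 fold change -1.91, adjusted p = 7.75e-11 from edgeR). SERPINE2, a protease inhibitor of plasminogen activators and thrombin, had a log2 fold change of -1.57 (adjusted p = 1.68e-07 from edgeR). A2M, a protease inhibitor that traps MMPs in the fluid phase, had -0.82 (adjusted p = 6.93e-05 from edgeR). For the urokinase system, which activates plasmin and through it some proMMPs, PLAU and PLAUR were at 18.4 and 53.1 CPM in controls and at 23.2 and 61.7 CPM in KD samples, and their log2 fold changes were 0.34 and 0.22.

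**Figure D4:**
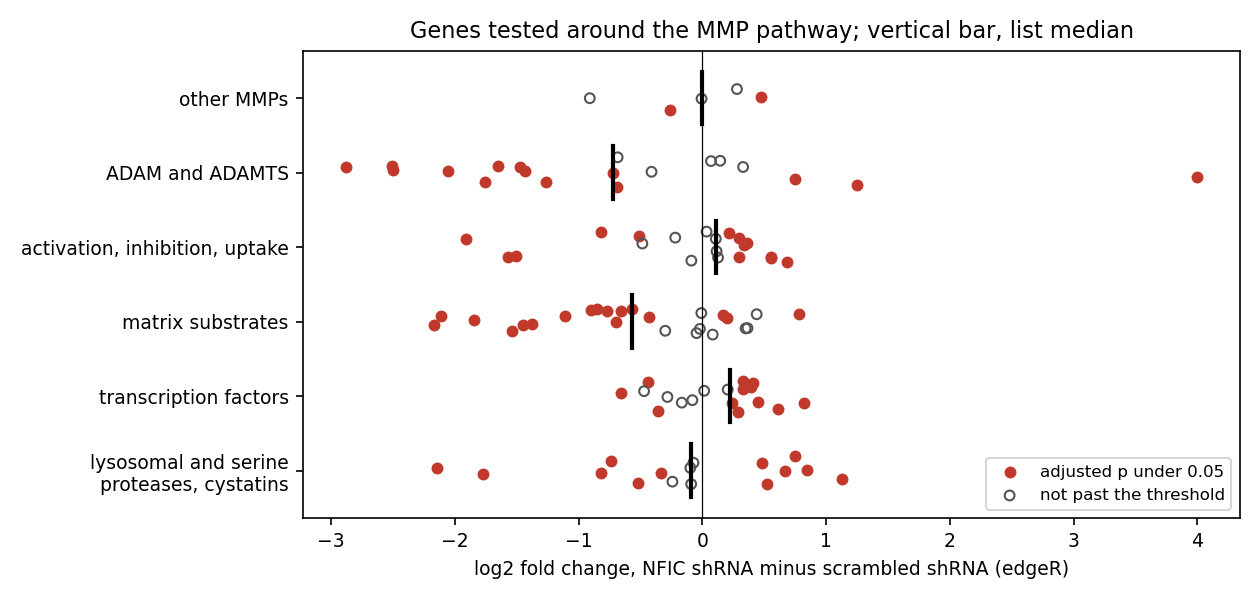
Log2 fold change of each tested gene in 6 lists around the MMP pathway, with genes past an adjusted p of 0.05 filled in red, other tested genes open, and a vertical bar at the list median. Most ADAM and ADAMTS genes and matrix substrates lie left of 0, with ADAMTS5 as the point farthest to the right.

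Matrix proteins that MMPs cut were the next list. Of 36 genes 25 were tested, of which 14 fell and 3 rose, with a median log2 fold change of -0.57. The share called was 68%, against 59.9% of all genes tested. FN1, which encodes fibronectin, had 399, 442 and 399 counts in controls, against 152, 170 and 151 in KD samples (log2 fold change -1.37, adjusted p = 2.43e-09 from edgeR). LAMB2, a laminin chain, and HSPG2, the basement membrane proteoglycan perlecan, had log2 fold changes of -1.45 and -0.85 (adjusted p = 1.54e-07 and 4.14e-07 from edgeR). The type IV collagen gene COL4A1, whose product the gelatinases cleave, went from 27.2 ± 0.844 CPM to 20.1 ± 0.731 CPM (SD, n = 3 per group). SPARC and NID1 rose by small amounts, with log2 fold changes of 0.20 and 0.17 (adjusted p = 0.00714 and 0.00735 from edgeR). Of these, SPARC had an adjusted p of 0.0532 from edgeR without scrambled shRNA replicate 1. The remaining gene was COL4A3, which had between 12 and 14 counts in controls and between 18 and 26 in KD samples, and its adjusted p of 0.0415 from edgeR was above 0.05 in 9 of 14 alternatives, up to 0.175 with DESeq2. With upper-quartile normalization the adjusted p of NID1 was 0.0501, and over its 14 alternatives it lay between 0.00144 and 0.0501.

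MMP2, TIMP3 and fibrillar collagens are typical products of fibroblasts, so stromal markers were read beside them. Of 10 markers 3 were tested, and all 3 fell, against 30.3% of all genes tested that were lower. COL1A1 had a log2 fold change of -1.54 (adjusted p = 6.79e-07 from edgeR), PDGFRB -0.65 and THY1 -0.48, and the adjusted p of THY1 was 0.0339 with edgeR and above 0.05 in 7 of 14 alternatives, up to 0.171 with DESeq2. That of PDGFRB was 0.0108 with edgeR, 0.0686 with DESeq2 and 0.0537 without scrambled shRNA replicate 1. The summed level of the 10 markers was between 11.0 and 11.7 CPM in controls, against between 5.63 and 6.76 CPM in KD samples. The markers differed widely in level. DCN, LUM and COL1A2 had at most 2 counts in any sample, and COL3A1 had between 2 and 10. COL1A1 had between 102 and 130 counts in controls, against between 31 and 46 in KD samples. What part stromal cells had in the values of MMP2 and TIMP3 was not tested.

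Transcription factors known to act on MMP promoters were all tested, and 9 of 18 rose and 3 fell, with a median log2 fold change of 0.22. The share called was 66.7%, near the 59.9% of all genes tested. STAT3 went from 136 ± 4.46 CPM to 207 ± 9.56 CPM (SD, n = 3 per group, log2 fold change 0.61, adjusted p = 2.33e-08 from edgeR). ETV5 and RELA had log2 fold changes of 0.39 and 0.33 (adjusted p = 1.36e-04 and 7.32e-04 from edgeR). Of the 7 AP-1 subunits in the list, FOS, JUN, JUNB and FOSL2 rose, with log2 fold changes of 0.83, 0.29, 0.33 and 0.24. FOSB, JUND and FOSL1 did not pass the test, with log2 fold changes of -0.47, -0.17 and 0.20. Without scrambled shRNA replicate 2 the adjusted p from edgeR was 0.0893 for FOS and 0.0962 for JUN, and without NFIC shRNA replicate 2 that of JUN was 0.0590. With no filter on low counts that of FOS was 0.108, and with upper-quartile normalization that of JUN was 0.0512. ETS2 had a log2 fold change of -0.66, NFKB1 of -0.36 and RUNX2 of -0.44 (adjusted p = 1.29e-07, 1.42e-04 and 0.00191 from edgeR). Within the NFI family NFIX fell to 16.9 ± 0.977 from 24.7 ± 0.788 CPM (SD, n = 3 per group), NFIA had between 14 and 17 counts and then between 0 and 4, and NFIB had at most 1 count in any sample.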

How the data were processed

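Bulk mRNA of 3 scrambled shRNA and 3 NFIC shRNA samples of THP-1 cells was compared. Reads had been trimmed with Trim Galore, mapped to GRCh38 with STAR and counted per gene with featureCounts by the authors, and the deposited counts are whole numbers without normalization. The authors made the deposited FPKM from these counts, a DESeq2 size factor per sample and the gene length. Their size-factor-normalized counts, log2 fold changes, standard errors, test statistics and p-values were not used. Tool versions are not given in the sources used here.

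Counts were tested with edgeR 4.0.16 (R 4.3.3): filter on low counts, TMM scaling, robust quasi-likelihood test without a replicate block, and Benjamini-Hochberg adjustment over 19182 genes at 0.05. The SE is the log2 fold change divided by the square root of F. The depth of 20369543 to 24809720 counts puts the limit that 3 counts set at between 0.122 and 0.146 CPM, which covers counting error only. Positions are from GENCODE release 44 (GRCh38), matched by gene identifier.

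The members and lists were chosen with earlier results of these data known. All members were named, and from each list up to 3 genes in each direction past the threshold with the smallest p and a mean log2 CPM of at least 0. ADAM17, ADAMTS4, FURIN, LRP1, PLAU, PLAUR, COL4A1, COL4A3, NFIA, NFIB, the AP-1 subunits, HP, the other markers given by level or count and genes that did not pass fall outside it and were picked with their values in view. The alternatives were 3 scalings, DESeq2 1.42.0, 2 filters, each sample left out and 2 replicate blocks. The steps were tested on simulated data. Results of some genes are not reported here.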

Additional observations from a re-analysis of the deposited data

How the results depend on the processing

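The 6 members past the threshold in the choice's own comparison kept their direction and side in the 14 alternatives, which use the same samples and are no independent support. With 1 sample removed at a time, the log2 fold change lay from -3.48 to -3.30 for MMP2, from -1.21 to -0.96 for MMP9, from -0.93 to -0.75 for MMP19, from -0.63 to -0.49 for TIMP1, from 0.61 to 0.73 for TIMP2 and from -1.71 to -1.21 for TIMP3. MMP14 ranged from 0.014 to 0.065 and MMP25 from -0.097 to 0.22. With upper-quartile normalization MMP14 was at -0.012, 0 of the other MMPs were higher and 2 lower, 1 matrix substrate was higher and 5 transcription factors were lower. That scaling moved the median of all genes tested from -0.011 to -0.068, so that fewer genes were called higher, 4953 against 5676, and 6503 against 5810 lower. Of the other MMPs, 0 were higher and 0 lower with DESeq2, and 0 were higher with a minimum of 10 counts in every sample, which leaves fewer genes. Without 1 sample between 0 and 1 of them were higher and between 1 and 2 lower, and between 1 and 3 matrix substrates were higher, the lowest without scrambled shRNA replicate 1. The MMP to TIMP ratio was 1.45 and 1.09 with scrambled and NFIC shRNA when all MMP and TIMP genes were summed. It cannot change with CPM per kilobase in place of FPKM, since the scaling of a sample cancels.

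With the replicate number of the labels as a block, 0 of the other MMPs were higher, since MMP21 was lost, and among the other genes named THY1 (adjusted p of 0.0547 from edgeR) and COL4A3 (0.0573) were lost. FOS was lost with the block by sample name (0.0737). The deviations of same-numbered samples correlated at 0.0563, -0.0862 and -0.0446, not over 0.1 in any pair. With 3 samples per group, these values cannot tell whether same-numbered samples shared a culture or batch. Paired by sample name, the correlations were 0.0563, 0.0267 and 0.145. The names are C1, C3 and C4 in controls and N1, N2 and N3 in KD samples. C4 was therefore joined with N2, whose number differs, also in the block by sample name. With the block by label number, 5439 genes were higher and 5544 lower. At this depth, genes with a few counts per sample, such as MMP8 and TIMP4, could not be compared. A difference of MMP25 within its interval was not detectable.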

Other observations

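Other proteases that can degrade matrix were read as a further list. Of 18 lysosomal and serine protease genes and cystatins 16 were tested, of which 6 rose and 6 fell, with a median log2 fold change of -0.094. The share called was 75%, against 59.9% of all genes tested. CTSD, the lysosomal aspartic protease cathepsin D, rose to 880.1 ± 38.4 CPM from 403 ± 23.0 CPM (SD, n = 3 per group, log2 fold change 1.13, adjusted p = 3.23e-11 from edgeR). CTSS and the cystatin CSTB had log2 fold changes of 0.67 and 0.75 (adjusted p = 1.06e-07 and 5.77e-08 from edgeR). The azurophil granule protease CTSG fell to 1325 ± 68.0 CPM from 2214 ± 51.5 CPM (SD, n = 3 per group, adjusted p = 1.99e-09 from edgeR), and CTSL and CST7 had log2 fold changes of -0.82 and -2.14 (adjusted p = 1.10e-07 and 2.84e-08 from edgeR).

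Marker lists were read for the cell types that could carry these genes. Of 15 monocyte and macrophage markers 12 were tested, of which 4 rose and 4 fell. The share called was 66.7%, near the 59.9% of all genes tested. ITGAM, LYZ and CD14 had log2 fold changes of 0.99, 0.72 and 0.65, and CD68, CD33 and CD36 had -1.01, -0.97 and -0.85 (adjusted p at most 1.06e-04 from edgeR for these 6). Of 11 genes of neutrophil secondary and tertiary granules, where MMP9 and MMP25 are also found, 4 were tested. Of these, CAMP (-2.42) and HP (-1.73) fell and 2 did not pass, so that 50% were called, against 59.9% of all genes tested. The summed level of the list was between 7.05 and 7.91 CPM in controls, against between 5.14 and 5.63 CPM in KD samples. Among the genes not tested, LTF had at most 1 count in any sample. MMP8, also on this list, had 0, 5 and 2 counts in controls, against 8, 6 and 10 in KD samples. None of the 6 epithelial markers was tested. Of 8 lymphoid markers 4 were tested and 3 fell, against 30.3% of all genes tested that were lower. What part these cell types had in the values of the members was not tested.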
